A study of Mus musculus with 18 samples.

Results

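The genes of the endoplasmic reticulum (ER) stress and amino acid response were followed in the livers of mice fed chow or a high-fat diet, with and without the protein AIM. The 9 members were the chaperone gene Hspa5, the transcription factor genes Ddit3, Atf4 and Xbp1, the pseudokinase gene Trib3, the enzyme genes Asns and Chac1, and the ER quality control genes Herpud1 and Dnajb9. They were chosen by gene symbol, and each was read from its brightest probe set. They are 9 of 18193 genes with a probe set of their own on the array, and all 9 were among the 14694 genes that passed a filter on dim probe sets and were tested. The RNA came from whole liver of mice of C57BL/6 background and was measured on 18 Affymetrix mouse expression arrays, with 3 arrays in each of 6 groups. The WT groups (AIM+/+) were fed normal chow, the high-fat diet (HFD) for 12 weeks, or the HFD for 20 weeks. The AIM-KO groups (AIM-/-) were fed in the same 3 ways. AIM, the apoptosis inhibitor of macrophage, is a secreted protein of tissue macrophages encoded by Cd5l. The labels call the 3 arrays of each group biological replicates. Sex, age and the way the gene was inactivated are not given in the sources used here. Neither is whether each array came from a separate animal. The p-values therefore set differences against the spread between these arrays. If arrays share animals, they are too small for a statement about mice. Time on the HFD and age cannot be told apart.

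Proteins that fail to fold in the ER set off the unfolded protein response through the sensors IRE1, PERK and ATF6. IRE1 splices the messenger of Xbp1 into the form that encodes an active transcription factor, ATF6 drives chaperone genes such as Hspa5, and PERK raises translation of Atf4. Lack of amino acids also raises ATF4 translation, through the kinase GCN2, and ATF4 drives Asns, Chac1, Trib3 and Ddit3. The liver secretes much of the plasma protein and keeps a large ER, and this response is often studied in fatty liver. The arrays measured messenger levels and neither the splicing of Xbp1 nor the translation of Atf4.

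The promoters of 4 members are shown because they hold the DNA elements through which the 2 branches of the response are known to act. Each sequence is the 250 bases before the transcript start in the RefSeq promoter table of build GRCm38.p6, read 5′ to 3′ on the strand of the gene, and the fixed letters of a matched element are in capitals. All 9 members had a window there. Hspa5 lies on the + strand at chr2:34771840-34772089, Herpud1 on the + strand at chr8:94386179-94386428, Asns on the - strand at chr6:7693210-7693459 and Chac1 on the + strand at chr2:119350992-119351241.
Hspa5: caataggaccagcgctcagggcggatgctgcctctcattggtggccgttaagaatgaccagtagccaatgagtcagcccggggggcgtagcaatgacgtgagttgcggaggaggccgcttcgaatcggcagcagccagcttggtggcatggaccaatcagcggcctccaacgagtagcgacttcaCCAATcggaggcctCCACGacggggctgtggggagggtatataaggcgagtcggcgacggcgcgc
Herpud1: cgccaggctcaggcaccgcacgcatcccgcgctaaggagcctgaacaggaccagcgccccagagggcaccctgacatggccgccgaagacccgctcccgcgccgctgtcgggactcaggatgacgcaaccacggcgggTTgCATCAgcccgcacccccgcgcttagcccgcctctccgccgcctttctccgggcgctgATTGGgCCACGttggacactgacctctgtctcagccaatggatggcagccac
Asns: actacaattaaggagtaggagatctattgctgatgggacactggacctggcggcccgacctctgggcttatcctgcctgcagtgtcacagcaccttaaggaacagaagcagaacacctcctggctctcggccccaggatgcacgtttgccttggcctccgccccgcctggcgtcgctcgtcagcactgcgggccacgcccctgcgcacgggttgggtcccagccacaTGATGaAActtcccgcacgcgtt
Chac1: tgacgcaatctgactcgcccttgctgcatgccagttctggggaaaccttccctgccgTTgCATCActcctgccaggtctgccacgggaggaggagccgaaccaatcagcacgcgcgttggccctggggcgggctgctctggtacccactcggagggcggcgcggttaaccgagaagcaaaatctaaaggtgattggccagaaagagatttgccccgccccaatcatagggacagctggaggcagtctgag

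The search covered both strands of windows of 300 bases, from 250 before to 50 after the transcript start. The ER stress element, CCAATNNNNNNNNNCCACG, matched in Hspa5 at positions -65 to -47 from the start and in 0.119% of all 32851 windows. The second ER stress element, ATTGGNCCACG, matched in Herpud1 at positions -52 to -42 and in 0.0365% of windows. The C/EBP-ATF element, TGATGNAA, through which ATF4 binds, matched in 4 members and in 3.97% of windows. It lay at positions -23 to -16 in Asns, -193 to -186 in Chac1, -112 to -105 in Herpud1 and 14 to 21 in Trib3, downstream of the start of that gene. The element bound by XBP1, TGACGTGG, was found in no member's window and in 0.676% of all windows. The cyclic AMP element, TGACGTCA, was found in no member's window and in 1.79% of all windows. None of the 5 elements matched in Ddit3, Atf4, Xbp1 or Dnajb9. No matched element overlapped another, and a match describes these letters only.

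Cd5l read between 702.6 and 1926.8 on the 9 WT arrays and between 4 and 23.5 on the 9 AIM-KO arrays, as the genotype labels state. Xist, which is transcribed from the inactive X chromosome of female cells, read 2921.6 or more on all 3 AIM-KO arrays of 20 weeks and on WT 20 weeks replicate 2, and 26.2 or less on the other 14 arrays. A high Xist value and 20 weeks of HFD therefore cannot be told apart in AIM-KO livers. An Xist term in the fit is set by WT 20 weeks replicate 2 alone. A call lost with this term in AIM-KO at 20 weeks therefore does not tell the 2 apart. The ratio of the 3′ to the 5′ probe sets of beta-actin, a measure of RNA integrity, had its highest group mean in WT 20 weeks (3.47 ± 0.86, SD, n = 3) and its lowest in AIM-KO chow (2.51 ± 0.22, SD, n = 3). The summed intensity of 7 hepatocyte markers ranged from 55203.8 to 67181.9 in WT chow. It ranged from 47331 to 59393.8 in WT at 12 weeks and from 50299.6 to 58174.9 in WT at 20 weeks. In AIM-KO livers it ranged from 60246.1 to 62879.2 on chow, from 43455.6 to 45887.7 at 12 weeks and from 48574.1 to 56036.2 at 20 weeks. The sum of 6 macrophage markers was at most 2421 in WT chow and at least 3815.5 at 20 weeks in WT, and at most 2376.9 in AIM-KO chow and at least 4134.2 at 12 weeks in AIM-KO. It ranged from 2470.9 to 3789.3 in WT at 12 weeks and from 2346.1 to 3350.2 in AIM-KO at 20 weeks. The sum of 5 stellate cell markers ranged from 266.6 to 347 in WT chow, from 686.6 to 1093.4 at 12 weeks in WT and from 1099.9 to 1664.6 at 20 weeks in WT. In AIM-KO livers it ranged from 283.7 to 306.1 on chow, from 954.7 to 1282.5 at 12 weeks and from 484.2 to 895.1 at 20 weeks. The sum of 4 T cell markers lay between 27.8 and 77.9 over the 18 arrays, with median intensities from 5.85 for Cd3e to 27.4 for Cd8a. The sum of 6 B and plasma cell markers lay between 90.6 and 163.9, with medians from 1.75 for Cd79a, which did not pass the filter, to 36.4 for Mzb1. The sum of 5 pancreatic acinar markers ranged from 389 to 451.8 in WT chow. It ranged from 250 to 255.6 at 12 weeks in WT and from 194.6 to 413.2 at 20 weeks in WT. In AIM-KO livers it ranged from 434.9 to 695.8 on chow. There it ranged from 245.9 to 312.8 at 12 weeks and from 223.7 to 319.3 at 20 weeks. Median intensities were 267.15 for Cela1 and 19.2 or less for the others. In bulk liver RNA, fewer cells of a type and less RNA per cell cannot be told apart. The part of cell makeup and RNA integrity in the results on the members was not tested.

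The members that passed the test on the HFD were all lower than on chow, and none was higher. A call here means a Benjamini-Hochberg adjusted p below 0.05 over the 14694 genes, from limma fitted to the log2 values of all 18 arrays. In WT livers 0 of 9 members were called at 12 weeks (5.14% of all genes were, 3.52% as higher and 1.63% as lower) and 1 was lower at 20 weeks, Xbp1 (14.5% of all genes were called, 8.72% as higher and 5.77% as lower). In AIM-KO livers 2 were lower at 12 weeks, Xbp1 and Atf4 (18.1% of all genes were called, 11.4% as higher and 6.78% as lower). At 20 weeks 3 were lower in AIM-KO livers, Xbp1, Hspa5 and Dnajb9 (6.96% of all genes were called, 4.29% as higher and 2.67% as lower). Unadjusted p-values were under 0.05 for 3 members in WT at 12 weeks (19.5% of all genes), 5 in WT at 20 weeks (27.7%), 5 in AIM-KO at 12 weeks (29.4%) and 4 in AIM-KO at 20 weeks (20.3%). The median change of the 9 members was -0.34 in WT at 12 weeks, -0.39 in WT at 20 weeks, -0.40 in AIM-KO at 12 weeks and -0.41 in AIM-KO at 20 weeks, where the median of all genes lay between -0.01 and 0.04. The arrays of the HFD group and of chow did not overlap for 2 of 9 members in WT at 12 weeks (23.9% of all genes), 4 in WT at 20 weeks (29.1%), 5 in AIM-KO at 12 weeks (34.8%) and 5 in AIM-KO at 20 weeks (24%). Within a genotype the 12-week and 20-week comparisons share the chow arrays. A log2 change here is a difference of log2(intensity + 3.3), and it understates the change of dim genes such as Asns. Changes are given with their SE for 3 against 3 arrays.

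**Figure D1:**
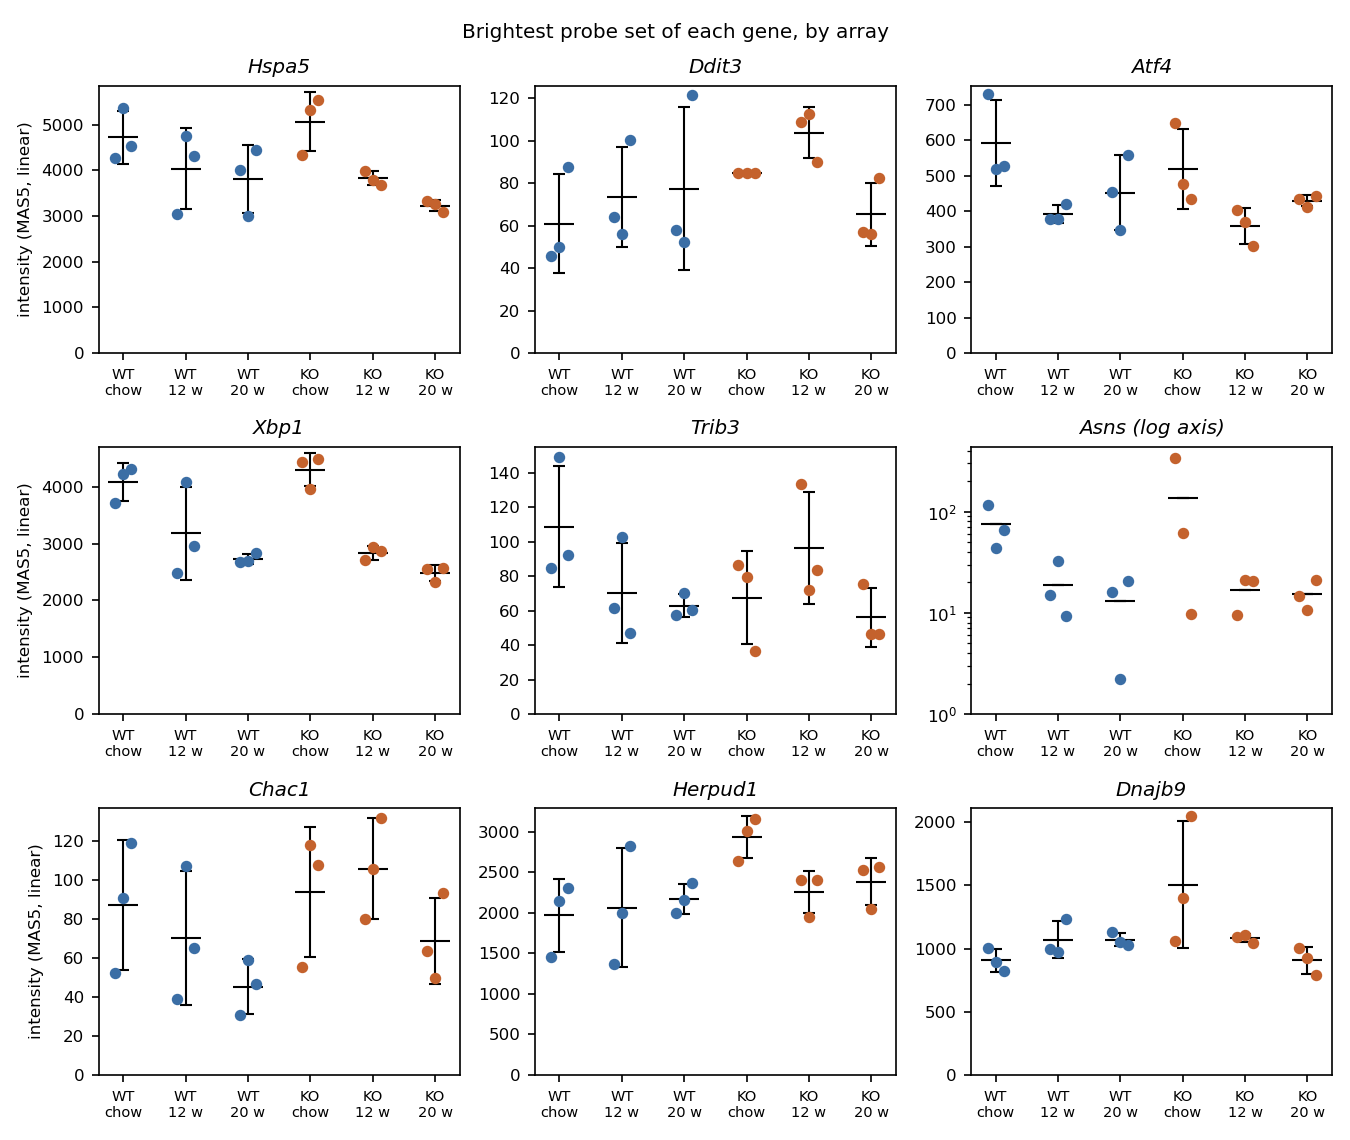
Intensity (MAS5 scale, linear from 0 except for Asns, which has a log axis) of the brightest probe set of each of the 9 genes on each of the 18 arrays, with WT in blue and AIM-KO (KO) in orange. Horizontal bars are means of 3 arrays and whiskers are the SD, left out for Asns. The Xbp1 points of both genotypes lie between 3707.2 and 4487.7 on chow and between 2324.2 and 2830.4 at 20 weeks.

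Xbp1, the transcription factor of the IRE1 branch, changed with the HFD in both genotypes. Its intensity on WT chow was 3707.2, 4228.3 and 4314.5 on replicates 1, 2 and 3. It was 2490.7, 4089 and 2961.1 at 12 weeks in WT, and 2679.5, 2686.5 and 2830.4 at 20 weeks. Every WT array of 20 weeks lay below every WT chow array, and at 12 weeks replicate 2 lay within the chow range. The AIM-KO values were 4443.3, 3969.9 and 4487.7 on chow. They were 2703.1, 2947.7 and 2864.2 at 12 weeks, and 2560.3, 2324.2 and 2565.4 at 20 weeks. All AIM-KO arrays of the HFD lay below all AIM-KO chow arrays. The log2 change was -0.58 ± 0.13 in WT at 20 weeks (limma adjusted p = 0.0055, 1.49-fold lower), from a mean of 4083 ± 329 to 2732 ± 85.2 (SD, n = 3). It was -0.60 ± 0.13 in AIM-KO at 12 weeks (limma adjusted p = 0.0033) and -0.79 ± 0.13 in AIM-KO at 20 weeks (limma adjusted p = 0.0009). In WT at 12 weeks it was -0.39 ± 0.13 (limma adjusted p = 0.093), and -0.58 with an adjusted p of 0.0027 when WT 12 weeks replicate 2 was left out. Without the 4 Xist-high arrays the WT change at 20 weeks was -0.56 (limma adjusted p = 0.022). When the fit also held an Xist term, set by 1 WT array, the AIM-KO change at 20 weeks was -0.75 ± 0.23 (limma adjusted p = 0.13).

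Hspa5 encodes BiP, the main chaperone of the ER lumen and a partner that holds the 3 sensors inactive. It read 4258.8, 5363.9 and 4537.8 on WT chow, 3038.3, 4752.9 and 4305.3 at 12 weeks in WT and 4008.1, 2991.1 and 4445.2 at 20 weeks in WT. The WT groups overlapped, since replicates 2 and 3 of 12 weeks and replicate 3 of 20 weeks lay above the lowest chow array. In AIM-KO livers it read 4323.6, 5316.3 and 5540.2 on chow, 3986.9, 3796.7 and 3683.4 at 12 weeks and 3337, 3255.1 and 3089.5 at 20 weeks. These 3 AIM-KO groups did not overlap, and they stood in the order chow, 12 weeks, 20 weeks. At 20 weeks Hspa5 fell by 0.64 ± 0.16 in AIM-KO livers (limma adjusted p = 0.018), from 5060 ± 648 to 3227 ± 126 (SD, n = 3). The other changes were -0.40 ± 0.16 in AIM-KO at 12 weeks (limma adjusted p = 0.091), -0.25 ± 0.16 in WT at 12 weeks and -0.32 ± 0.16 in WT at 20 weeks, none past the threshold. The AIM-KO change at 20 weeks was -0.14 ± 0.25 with the Xist term, set by WT 20 weeks replicate 2 (limma adjusted p = 0.85). It was between -0.57 and -0.65 and missed the threshold when AIM-KO chow replicate 2 or 3 or AIM-KO 20 weeks replicate 2 or 3 was left out (adjusted p = 0.066, 0.059, 0.057 and 0.064).

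Dnajb9 encodes ERdj4, a co-chaperone of BiP in the ER that also restrains IRE1. On WT chow it read 1007.3, 891.5 and 825.5, and the WT values were 999.3, 970.3 and 1237.6 at 12 weeks and 1128.1, 1055.8 and 1028.4 at 20 weeks. On AIM-KO chow it read 1060.8, 1403.3 and 2049.1, with replicate 3 the highest of all 18 arrays. The other AIM-KO values were 1090.6, 1107.8 and 1044.6 at 12 weeks and 1005.6, 923.9 and 789.2 at 20 weeks. In AIM-KO livers the 20-week arrays all lay below the chow arrays, whereas in WT livers they all lay above them. The AIM-KO change at 20 weeks was -0.68 ± 0.17 (limma adjusted p = 0.018) and the WT change was 0.24 ± 0.17 (limma adjusted p = 0.39). The difference between these diet effects was -0.92 ± 0.24 (limma adjusted p = 0.22), which did not pass. Without AIM-KO chow replicate 3 the AIM-KO change was -0.43 (adjusted p = 0.068). It was -0.70 and -0.59 without AIM-KO 20 weeks replicate 2 or 3 (adjusted p = 0.055 and 0.09), and -0.65 ± 0.31 with the Xist term (limma adjusted p = 0.34). At 12 weeks the AIM-KO change was -0.42 ± 0.17 (adjusted p = 0.094), and it was -0.65 and passed without AIM-KO chow replicate 1 (adjusted p = 0.0067).

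Herpud1 encodes an ER membrane protein of the complex that exports misfolded proteins for degradation. Its WT intensities were 1455.8, 2149.1 and 2301.4 on chow, 1368.6, 1993.3 and 2829.3 at 12 weeks and 1992.8, 2153.3 and 2369.8 at 20 weeks. Its AIM-KO intensities were 2645.4, 3012.6 and 3154.9 on chow, 2404, 1954.4 and 2403.3 at 12 weeks and 2529.9, 2047.4 and 2569.6 at 20 weeks. The AIM-KO chow arrays lay above all WT chow arrays and above all other AIM-KO arrays, and the WT groups overlapped. No Herpud1 comparison passed the test. The diet changes were 0.03 ± 0.20 and 0.17 ± 0.20 in WT and -0.38 ± 0.20 and -0.31 ± 0.20 in AIM-KO, at 12 and 20 weeks (limma adjusted p from 0.22 to 0.96).

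Atf4, the transcription factor whose translation PERK and GCN2 raise, had lower means on the HFD in both genotypes. Only the change in AIM-KO at 12 weeks was called, and these values are of its brightest probe set. Its intensity on WT chow was 731.2, 517.3 and 528.5, and the WT values were 376.9, 376.8 and 421.3 at 12 weeks and 452.6, 347.2 and 557.5 at 20 weeks. On AIM-KO chow it was 647.1, 475.9 and 434.3, against 402.2, 370.6 and 302 at 12 weeks and 434.9, 412.4 and 441.3 at 20 weeks. At 12 weeks no array of either genotype reached the chow arrays of that genotype, and at 20 weeks the groups overlapped. Atf4 fell by 0.52 ± 0.18 in AIM-KO at 12 weeks (limma adjusted p = 0.046). The WT change at 12 weeks was -0.58 ± 0.18 (limma adjusted p = 0.064), and the 20-week changes were -0.39 ± 0.18 in WT and -0.25 ± 0.18 in AIM-KO (adjusted p = 0.15 and 0.47). The AIM-KO call held under 9 of 20 alternatives. With the mean of probe sets the change was -0.30 (limma adjusted p = 0.4). The call was lost there and with quantile normalization, no dim filter, no variance trend, a minimum fold of 1.5 or only the groups compared. It was lost without AIM-KO chow replicate 1 (change -0.35, adjusted p = 0.21), AIM-KO chow replicate 2 (-0.57, 0.068), or any of AIM-KO 12 weeks replicates 1, 2 and 3 (-0.61, -0.55 and -0.40, adjusted p = 0.054, 0.091 and 0.19).

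Asns, the asparagine synthetase gene that ATF4 drives when amino acids are short, was dim and had the widest spread between replicates of the 9 genes. It read 116.4, 43.4 and 65.3 on WT chow, 15, 32.8 and 9.3 at 12 weeks in WT and 16.2, 2.2 and 20.6 at 20 weeks in WT. All WT arrays of the HFD lay below all WT chow arrays. On AIM-KO chow it read 338, 61.6 and 9.7, so that replicate 1 was the highest and replicate 3 among the lowest of the 18 arrays. The AIM-KO values were 9.6, 20.9 and 20.4 at 12 weeks and 14.6, 10.6 and 20.9 at 20 weeks, overlapping with AIM-KO chow replicate 3. The changes were -1.84 ± 0.80 and -2.41 ± 0.80 in WT and -1.76 ± 0.80 and -1.86 ± 0.80 in AIM-KO, at 12 and 20 weeks. None passed the threshold (limma adjusted p = 0.2, 0.051, 0.15 and 0.19). The 95% interval of the WT change at 20 weeks ran from -4.09 to -0.73, and with an actin ratio term the change was -3.52 (adjusted p = 0.0058). Without AIM-KO chow replicate 3 the AIM-KO changes were -2.93 at 12 weeks and -3.03 at 20 weeks, and both passed (adjusted p = 0.0058 and 0.0096). Without AIM-KO chow replicate 1 they were -0.58 and -0.68 (adjusted p = 0.64 and 0.67). With the Xist term the AIM-KO change at 20 weeks was 0.11 ± 1.37 (limma adjusted p = 0.98), on the other side of 0. That term is set by WT 20 weeks replicate 2, whose 2.2 is below the pseudocount of 3.3. Without WT 20 weeks replicate 2 the WT change at 20 weeks was -1.75 (adjusted p = 0.18).

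Ddit3 encodes CHOP, the transcription factor tied to cell death in lasting ER stress. It read 45.6, 49.8 and 87.7 on WT chow, 63.9, 56.1 and 100.5 at 12 weeks in WT and 58.1, 52.4 and 121.7 at 20 weeks in WT. Replicate 3 was the highest of each WT group, and the groups overlapped. The AIM-KO chow arrays read 85.1, 85 and 85, the 12-week arrays 108.8, 112.5 and 90.1 and the 20-week arrays 57.2, 56.3 and 82.7. The AIM-KO groups did not overlap, with 12 weeks highest and 20 weeks lowest. The change from 12 to 20 weeks in AIM-KO was -0.66 ± 0.28 (limma adjusted p = 0.25). The changes against chow were 0.27 ± 0.28 at 12 weeks in either genotype, 0.28 ± 0.28 in WT at 20 weeks and -0.38 ± 0.28 in AIM-KO at 20 weeks, with no call (adjusted p from 0.51 to 0.68).

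Trib3, a pseudokinase of the ATF4 and CHOP output that restrains Akt, moved in no constant direction. Its WT intensities were 84.6, 149.2 and 92.3 on chow, 61.7, 102.5 and 46.7 at 12 weeks and 57.4, 70.1 and 60.6 at 20 weeks. The WT arrays of 20 weeks all lay below the WT chow arrays. Its AIM-KO intensities were 86.4, 79.3 and 36.5 on chow, 133.2, 71.7 and 83.8 at 12 weeks and 75.5, 46.2 and 46.3 at 20 weeks, and these groups overlapped. The 20-week change in WT was -0.72 ± 0.33 (limma adjusted p = 0.15). The 12-week change was -0.63 ± 0.33 in WT and 0.53 ± 0.33 in AIM-KO, and the difference of 1.16 ± 0.46 did not pass (limma adjusted p = 0.44).

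Chac1 encodes an enzyme that breaks down glutathione and is a late target of ATF4. It read 52.6, 90.8 and 118.9 on WT chow, 38.8, 107.3 and 65 at 12 weeks in WT and 30.9, 58.8 and 46.5 at 20 weeks in WT. It read 55.6, 118 and 108 on AIM-KO chow, 80.2, 105.7 and 132 at 12 weeks in AIM-KO and 63.5, 49.6 and 93.2 at 20 weeks in AIM-KO. Each HFD group overlapped with its chow group. The lowest mean was that of WT 20 weeks, with a change of -0.87 ± 0.36 (limma adjusted p = 0.12). The AIM-KO to WT change averaged over the diets was 0.44 ± 0.21 (limma adjusted p = 0.74).

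**Figure D2:**
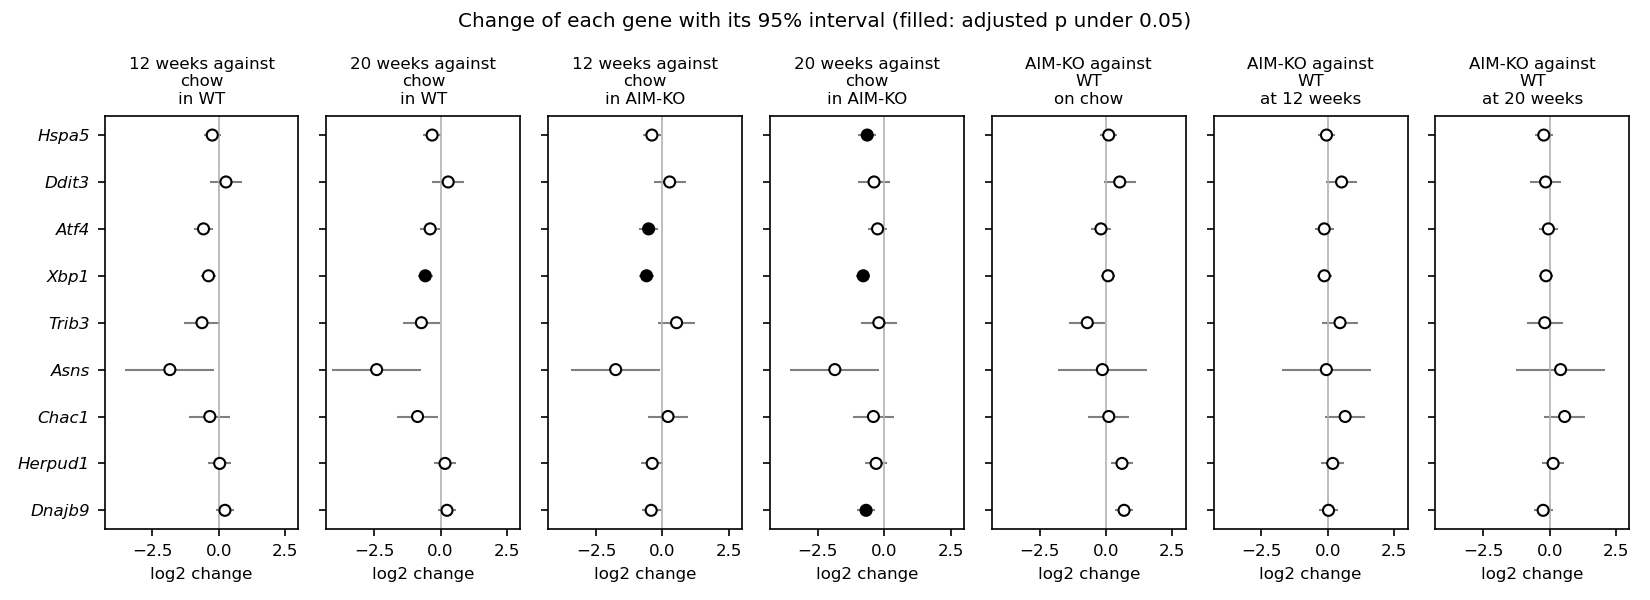
Change on the log2 scale (x axis) of each of the 9 genes (y axis) in the 4 comparisons of the HFD with chow and the 3 of AIM-KO with WT, with 95% intervals from limma. Filled points passed an adjusted p of 0.05. All 6 filled points lie left of 0, from -0.52 for Atf4 to -0.79 for Xbp1, and none is in a comparison of genotypes.

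Between the genotypes, 0 of 9 members were called on chow, at 12 weeks, at 20 weeks or on average over the diets (0.0272%, 0.0749%, 0.157% and 0.0272% of all genes were called by limma). Unadjusted p-values were under 0.05 for 3 members on chow, none at 12 or 20 weeks, and 1 on average, Herpud1. The genes called as higher in AIM-KO at 12 weeks were 0.0408% of all. The 3 members on chow were Dnajb9, Herpud1 and Trib3. Dnajb9 was at 1504 ± 502 in AIM-KO and 908 ± 92.0 in WT (SD, n = 3), a change of 0.68 ± 0.17 (limma adjusted p = 0.28). Herpud1 was at 2938 ± 263 against 1969 ± 451, a change of 0.60 ± 0.20 (limma adjusted p = 0.5). The arrays of Dnajb9 and Herpud1 did not overlap between the genotypes on chow, as held for 11.5% of all genes. No member's arrays were apart at 12 weeks (16% of all genes), and those of Xbp1 and Dnajb9 were at 20 weeks (15.7%), both lower in AIM-KO. At 20 weeks all AIM-KO arrays but only WT replicate 2 were Xist-high, so genotype and Xist were partly confounded. On chow Trib3 differed by -0.71 ± 0.33 (limma adjusted p = 0.67), with overlapping arrays. The Dnajb9 change on chow passed under 1 of 20 alternatives. That was without AIM-KO chow replicate 1, the lowest AIM-KO chow array (1060.8), where it was 0.90 (limma adjusted p = 0.034).

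The diet effects of the 2 genotypes were compared directly. None of the 9 members was called in the difference of the 12-week effect or of the 20-week effect (0.00681% and 0% of all genes were called by limma). Unadjusted p-values were under 0.05 for Dnajb9 and Trib3 at 12 weeks and for Dnajb9 at 20 weeks. For Xbp1 the differences were -0.21 ± 0.18 at both times, with 95% intervals from -0.59 to 0.17 at 12 weeks and from -0.60 to 0.17 at 20 weeks. For Hspa5 the 20-week difference was -0.32 ± 0.22, with an interval from -0.79 to 0.14. From 12 to 20 weeks 0 of 9 members were called in WT and 0 of 9 in AIM-KO (0.0204% and 3.44% of all genes were called by limma, 0.0136% and 1.31% as higher and 0.00681% and 2.12% as lower), with unadjusted p-values under 0.05 for none in WT and for Ddit3 and Trib3 in AIM-KO. The arrays of 12 and 20 weeks did not overlap for 0 of 9 members in WT (10.3% of all genes) and for 5 in AIM-KO (27.9%), Hspa5, Ddit3, Atf4, Xbp1 and Dnajb9. In AIM-KO the arrays of 20 weeks were all Xist-high and those of 12 weeks were not.

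The array carried 20 probe sets for the 9 members, of which 19 passed the filter, and 7 members had more than 1. Fitted over all probe sets rather than genes, all 4 Xbp1 probe sets fell in WT at 20 weeks, with changes of -0.58, -1.08, -0.84 and -0.60 from the brightest to the dimmest (limma adjusted p from 0.00072 to 0.035). The 3 brighter Xbp1 probe sets also fell in AIM-KO at 12 and 20 weeks. The second Hspa5 probe set fell in WT at 20 weeks by 0.66 ± 0.15 (limma adjusted p = 0.0077), where the brightest changed by -0.32 ± 0.16 and was not called. It also fell in AIM-KO by 0.47 at 12 weeks and 0.69 at 20 weeks, while the third and dimmest Hspa5 probe set changed by 0.18, 0.17 and 0.05 in these 3 comparisons and was not called. The second Asns probe set fell in WT at 20 weeks, with a change of -2.84 ± 0.82 (limma adjusted p = 0.031), and in AIM-KO at 20 weeks, with a change of -3.27 ± 0.82 (limma adjusted p = 0.024), at a mean intensity of 24.5. The second Atf4 probe set changed by -0.09 ± 0.28 in AIM-KO at 12 weeks, where the brightest changed by -0.52 and had an adjusted p of 0.054 over probe sets. The dim second Ddit3 probe set, with a mean intensity of 9.92, changed by -1.93 ± 0.64 in WT at 20 weeks, in the direction opposite to the brightest. The probe sets of Trib3 had the same sign in each of the 4 comparisons with chow, and those of Herpud1 differed in sign in WT at 20 weeks (0.17 and -0.03).

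**Figure D3:**
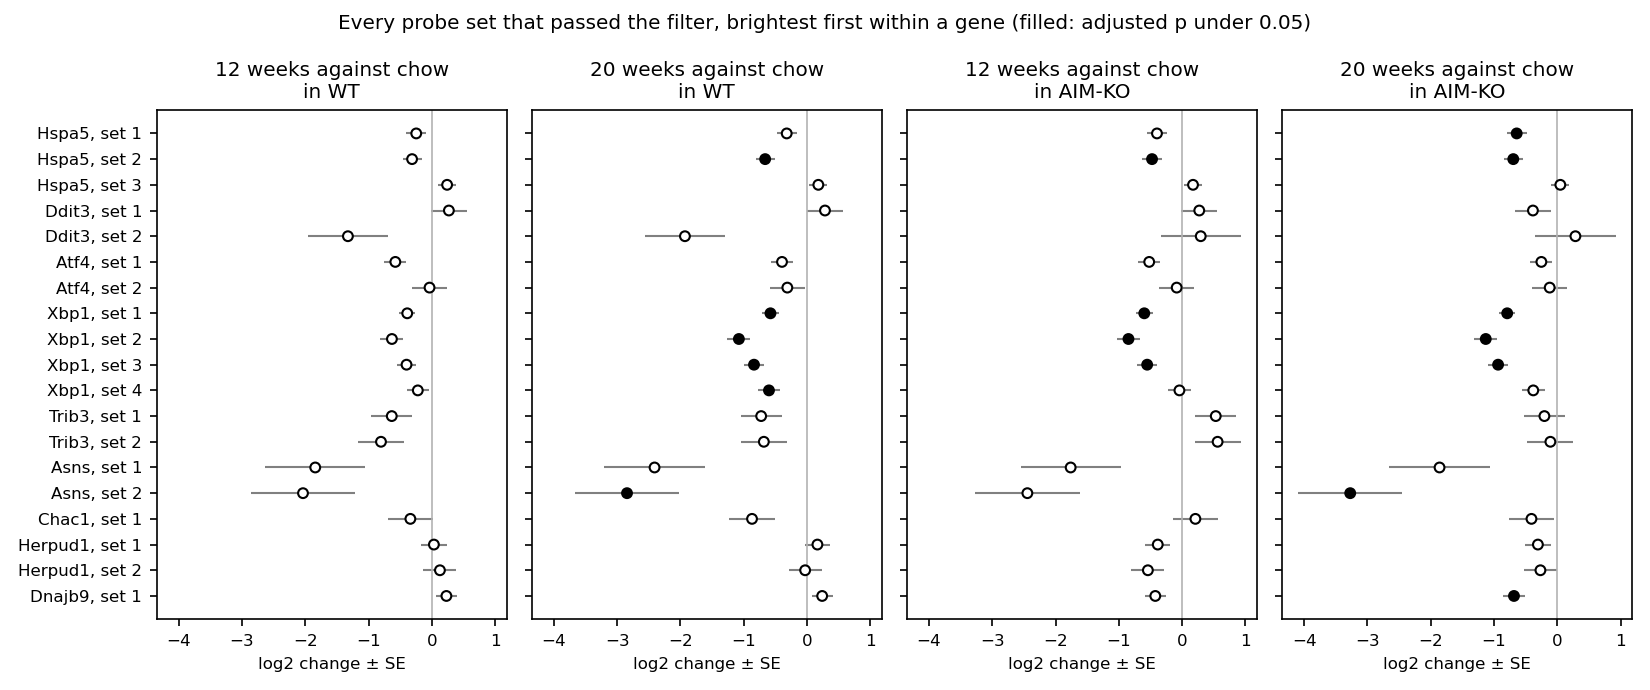
Change on the log2 scale with its SE (x axis) of each of the 19 probe sets that passed the filter (y axis, brightest first within a gene) in the 4 comparisons of the HFD with chow, filled where the adjusted p over all probe sets was under 0.05. The Xbp1 probe sets lie to the left of 0 in every panel, and the dimmest Hspa5 probe set lies to the right.

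Other genes of the same pathways were counted from 9 lists, which do not hold the members. The counts of these lists and of cell markers are to be read beside the shares of all genes called. Of all genes, 1.63% were lower and 3.52% higher in WT at 12 weeks, and 5.77% and 8.72% in WT at 20 weeks. In AIM-KO these shares were 6.78% and 11.4% at 12 weeks, and 2.67% and 4.29% at 20 weeks. Of 25 ER chaperones and folding enzymes, 14 were lower and 0 higher in WT at 20 weeks, with a median change of -0.42 (all genes -0.01). Pdia5, a protein disulfide isomerase, fell by 0.91 ± 0.16, the BiP partner gene Sdf2l1 by 1.07 ± 0.21, Creld2 by 1.03 ± 0.31 and Txndc11 by 1.01 ± 0.31. Leaving out WT chow replicate 2 or 3 gave 8 and 9, leaving out WT 20 weeks replicate 1 gave 7, and the actin term gave 13. In the other comparisons with chow 1 was lower in WT at 12 weeks (Pdia5), 2 in AIM-KO at 12 weeks (Pdia5 and Erp44) and 4 in AIM-KO at 20 weeks, with none higher. The AIM-KO count at 12 weeks was 12 with array weights, 6 with the mean of probe sets or without AIM-KO chow replicate 1, 5 with the replicate block and 4 with the actin or the Xist term. The WT count at 12 weeks was 5 with array weights, and 3 with the actin term or without WT 12 weeks replicate 2. The 4 in AIM-KO at 20 weeks were Txndc11 (-1.38 ± 0.31), Manf (-1.07 ± 0.22), Pdia5 (-0.67 ± 0.16) and Ero1b (-0.57 ± 0.16). That count was 3 to 5 when 1 array was left out. Under the other alternatives it ran from 1 to 10, with 6 for the actin term and 1 for the Xist term. Hsp90b1, Canx and P4hb, abundant partners in folding, were called in none of the 4 comparisons.

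Of 22 genes of ER-associated degradation and translocation, 12 were lower in WT at 20 weeks, 8 in AIM-KO at 12 weeks, 5 in AIM-KO at 20 weeks and 2 in WT at 12 weeks, and none was higher. The ubiquitin ligase gene Syvn1 fell by 0.75 ± 0.14 and Edem2, which marks misfolded glycoproteins, by 0.96 ± 0.14 in WT at 20 weeks. Os9, a lectin of the same step, fell by 0.61 ± 0.13, 0.72 ± 0.13 and 0.73 ± 0.13 in WT at 12 weeks, WT at 20 weeks and AIM-KO at 12 weeks. Sec63, of the translocation channel, fell by 0.50 ± 0.09 and 0.56 ± 0.09 in AIM-KO at 12 and 20 weeks. The WT count at 20 weeks was 8 to 10 when 1 array was left out and 5 to 12 under the other alternatives. With the Xist term it was 10 lower and 1 higher. The AIM-KO count at 12 weeks was 5 without AIM-KO chow replicate 2, 5 without AIM-KO 12 weeks replicate 1 and 4 without replicate 2. Under the other alternatives it ran from 3 to 11. The AIM-KO count at 20 weeks was 3 without AIM-KO 20 weeks replicate 1 or 2. Under the other alternatives it ran from 0 to 11, with 6 for the actin term and 0 for the Xist term.

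Among 14 stress sensors and their regulators, Ern1, which encodes IRE1 alpha, fell in WT at 12 weeks (-0.76 ± 0.16), in WT at 20 weeks (-0.90 ± 0.16) and in AIM-KO at 20 weeks (-0.56 ± 0.16). Also in WT at 20 weeks Ppp1r15b, a subunit of the phosphatase that reverses PERK signalling, fell by 0.32 ± 0.10 and the kinase gene Eif2ak2 rose by 0.51 ± 0.15. Eif2ak4, which encodes GCN2, rose by 0.71 ± 0.19 in AIM-KO at 12 weeks. The Ern1 call in AIM-KO at 20 weeks was lost with the Xist term, with quantile normalization, and without AIM-KO chow replicate 1 or 2 or AIM-KO 20 weeks replicate 2 or 3, and the one in WT at 12 weeks without WT 12 weeks replicate 1. The WT counts at 20 weeks were 0 higher and 1 lower with the actin term and without WT chow replicate 1 or 3 or WT 20 weeks replicate 1 or 3, and 3 higher and 1 lower without WT 20 weeks replicate 2. The Eif2ak4 call was lost with quantile normalization and without AIM-KO 12 weeks replicate 1. The PERK gene Eif2ak3 and the ATF6 gene Atf6 were called in none of these 4 comparisons.

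Of the 13 other genes of the ATF4 response tested, 2 were higher in WT at 12 weeks, 5 in WT at 20 weeks, 5 in AIM-KO at 12 weeks and 2 in AIM-KO at 20 weeks, and none was lower. Fgf21, a liver hormone of fasting and of amino acid lack, rose in all 4, by 1.71 ± 0.24, 1.57 ± 0.24, 2.09 ± 0.24 and 1.91 ± 0.24 in that order. The stress gene Nupr1 rose by 1.96 ± 0.44 in WT at 12 and at 20 weeks and by 2.23 ± 0.44 in AIM-KO at 12 weeks. Atf3, a transcription factor of many kinds of stress, rose by 2.08 ± 0.43 in WT at 20 weeks and by 1.99 ± 0.43 in AIM-KO at 12 weeks. Ddit4, an inhibitor of mTORC1, rose by 1.60 ± 0.52 in WT at 20 weeks, and Atf5 rose by 1.06 ± 0.28 and 0.99 ± 0.28 in AIM-KO at 12 and 20 weeks. The WT count at 12 weeks was 1 without WT chow replicate 3 or WT 12 weeks replicate 1 or 2. The WT count at 20 weeks was 3 with the actin term and 3 without any 1 of WT chow replicates 1, 2 and 3 or WT 20 weeks replicates 1 and 3. Without the Xist-high WT 20 weeks replicate 2 it was 6 higher and 2 lower. The AIM-KO count at 12 weeks was 3 without AIM-KO chow replicate 2 or 3, and the AIM-KO count at 20 weeks was 0 with the Xist term and 1 when AIM-KO chow replicate 2 or any AIM-KO array of 20 weeks was left out. That 20-week count was 3 with the actin term.

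Of 12 amino acid and one-carbon enzymes, Cth, which makes cysteine from cystathionine, fell by 0.86 ± 0.14 and 0.80 ± 0.14 in WT and by 1.36 ± 0.14 in AIM-KO at 12 weeks. In AIM-KO at 12 weeks 3 rose, the proline synthesis gene Aldh18a1 by 1.24 ± 0.33, Pck2 by 1.15 ± 0.32 and the serine synthesis gene Psat1, and Got1 was the other that fell. Psat1 went from a mean intensity of 1.1, below the pseudocount of 3.3, to 21.6, so the size of its change depends on the pseudocount (limma adjusted p = 0.0033). Without AIM-KO chow replicate 2 or AIM-KO 12 weeks replicate 1 the enzymes called as higher were 1. In WT at 20 weeks Gpt2 rose by 0.42 ± 0.13, a call lost with the actin term and without any 1 of WT chow replicates 1, 2 and 3 or WT 20 weeks replicates 1 and 3, and no enzyme was called in AIM-KO at 20 weeks. Of 14 amino acid transporters 5 were lower and 1 higher in AIM-KO at 12 weeks, with falls of 1.53 ± 0.32 for Slc43a1 and 0.92 ± 0.13 for the glutamine carrier Slc38a3 and a rise of 1.06 ± 0.26 for the arginine carrier Slc7a1. In WT 1 transporter was lower at 12 weeks (Slc38a2, -0.77 ± 0.19) and 1 at 20 weeks (Slc38a3, -0.46 ± 0.13), with none in AIM-KO at 20 weeks. The AIM-KO count of lower transporters at 12 weeks was 3 without AIM-KO chow replicate 2 or AIM-KO 12 weeks replicate 1 or 2. The WT calls were both lost without WT chow replicate 2 or 3, and also without WT 12 weeks replicate 1 at 12 weeks and without WT 20 weeks replicate 1 or 3 at 20 weeks. Without WT 20 weeks replicate 2 the WT counts at 20 weeks were 1 higher and 2 lower. Of 18 cytosolic aminoacyl-tRNA synthetases, which load amino acids onto their tRNAs, 2 and 6 were lower in WT and 3 and 2 in AIM-KO, at 12 and 20 weeks, with none higher. Eprs fell in all 4 comparisons as fitted, by 0.53 to 0.67, and with the Xist term 0 synthetases were called in AIM-KO at 20 weeks. That count was 1 without any 1 AIM-KO chow array or without AIM-KO 20 weeks replicate 1 or 3. Under the other alternatives it ran from 0 to 5. The AIM-KO count at 12 weeks was 1 without AIM-KO chow replicate 2, and the WT count at 12 weeks was 1 without WT chow replicate 2 or 3 or any 1 WT array of 12 weeks. With the actin term 2 were lower in WT at 20 weeks, as when WT 20 weeks replicate 3 was left out, and 3 were lower when WT chow replicate 2 or 3 or WT 20 weeks replicate 1 was.

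Of 6 cell death genes of ER stress, 1 and 2 were higher in WT and 3 and 1 in AIM-KO at 12 and 20 weeks, and none was lower. Casp12, the caspase of the ER in mice, rose by 1.70 ± 0.34 in WT at 20 weeks, and Bcl2l11, which encodes Bim, rose by 0.54 ± 0.15 and 0.78 ± 0.15 in WT and by 0.53 ± 0.15 in AIM-KO at 12 weeks. Txnip, a thioredoxin inhibitor, rose by 1.78 ± 0.19 and 0.79 ± 0.19 in AIM-KO, and Pmaip1, which encodes Noxa, by 1.91 ± 0.32 at 12 weeks in AIM-KO. The Bcl2l11 call in WT at 12 weeks was lost with the actin term and when any 1 of the 6 arrays was left out. The Txnip call in AIM-KO at 20 weeks was lost with the Xist term, with the mean of probe sets and without AIM-KO 20 weeks replicate 3. The AIM-KO count at 12 weeks was 2 without AIM-KO chow replicate 2 or AIM-KO 12 weeks replicate 1 or 2. Of 9 cytosolic heat shock genes, Hspb1 rose by 1.41 ± 0.24 and 1.54 ± 0.24 in WT and by 2.11 ± 0.24 in AIM-KO at 12 weeks. Dnajb1 rose by 1.04 ± 0.32 in WT at 20 weeks and Hsp90aa1 by 0.67 ± 0.19 and 0.65 ± 0.19 at 12 weeks in WT and AIM-KO, whereas the mitochondrial chaperone genes Hspd1 and Hspe1 fell by 0.39 ± 0.08 and 0.29 ± 0.09 in AIM-KO at 12 weeks. Both falls were lost with quantile normalization, and 1 gene was lower without AIM-KO chow replicate 1 or 3 or AIM-KO 12 weeks replicate 1 or 2. The AIM-KO count of higher genes at 12 weeks was 1 without AIM-KO chow replicate 1 or 2 or AIM-KO 12 weeks replicate 2 or 3. The WT count was 1 at 12 weeks with the actin term and without WT chow replicate 2 or 3 or WT 12 weeks replicate 3, and at 20 weeks without WT chow replicate 2 or 3 or WT 20 weeks replicate 3. No gene of the 9 lists was called in a comparison of AIM-KO with WT or in a difference of diet effects. Over the same comparisons with chow, 6 of 6 macrophage markers were higher in WT at 20 weeks and 5 of 6 in AIM-KO at 12 weeks, against 1 of 6 in WT at 12 weeks and 1 of 6 in AIM-KO at 20 weeks. Of 5 stellate cell markers 1 was higher in WT at 12 weeks, 4 in WT at 20 weeks, 4 in AIM-KO at 12 weeks and 3 in AIM-KO at 20 weeks. None of the 4 T cell markers and of the 5 B and plasma cell markers tested was called by limma in these comparisons. The same held for the 2 neutrophil and 4 cholangiocyte markers tested. Of 3 pancreatic acinar markers tested 1 was lower in AIM-KO at 12 and at 20 weeks, with no call in WT. Of 4 endothelium markers 1 was higher in AIM-KO at 12 weeks, with no other call. Of 7 hepatocyte markers 2 were lower in WT at 20 weeks and 6 in AIM-KO at 12 weeks, and none in the other comparisons. Their part in the changes of the lists was not tested.

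**Figure D4:**
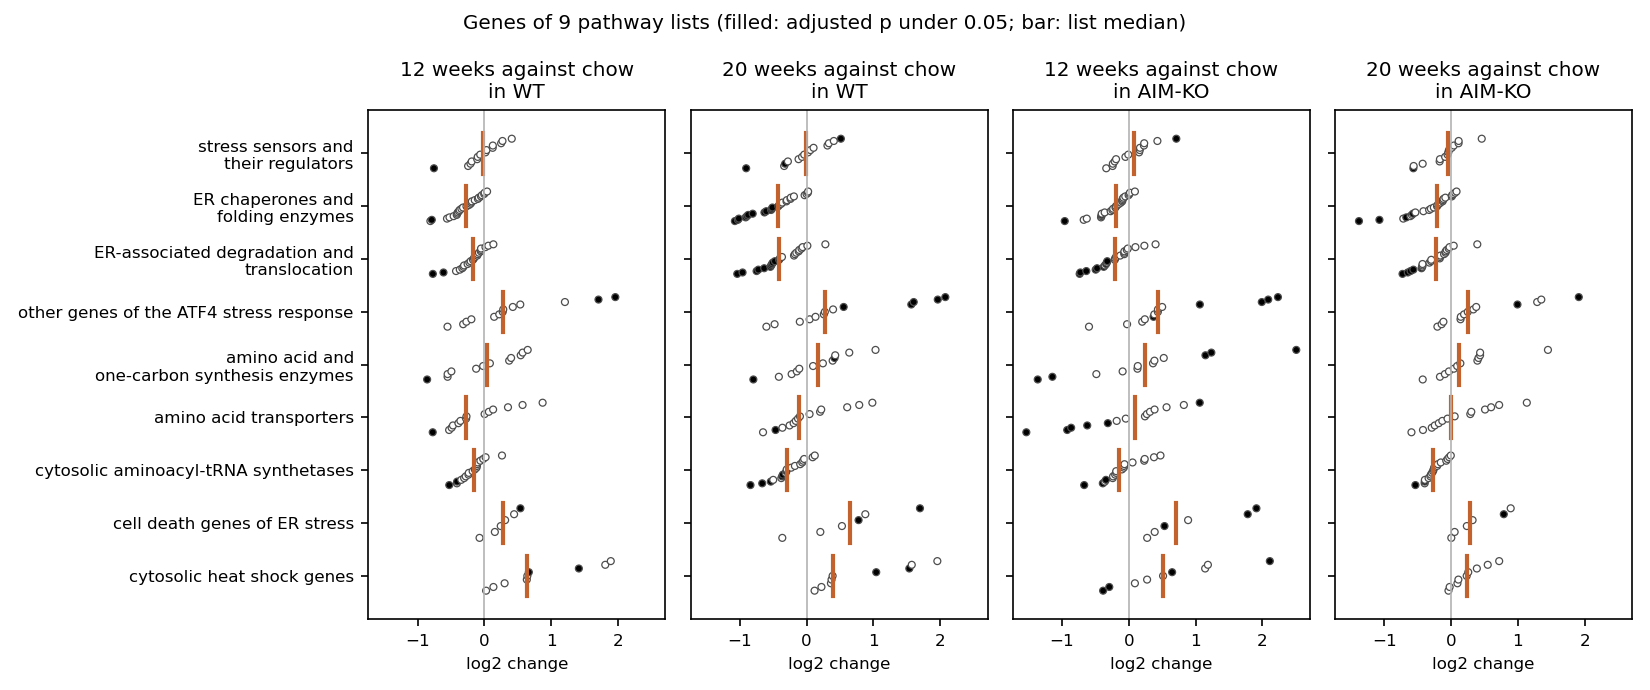
Change on the log2 scale (x axis) of every tested gene of the 9 lists (y axis) in the 4 comparisons of the HFD with chow. Each point is a gene, filled where its adjusted p was under 0.05, and the orange bar is the list median. In WT at 20 weeks the bars of the chaperone and degradation lists stand at -0.42 and -0.41 and that of the other ATF4 genes at 0.27.

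Correlations over the 18 arrays are a description, since the arrays share groups and processing and 4 of them are Xist-high. The part of these in the correlations was not tested. The correlation of log2 values was 0.84 between Hspa5 and Xbp1 and 0.56 for their deviations from the group means. Between Atf4 and Asns it was 0.73, and 0.66 for the deviations. Ddit3 had a correlation of -0.11 with Atf4, and 0.35 for the deviations, and of 0.50 with Herpud1, and 0.53 for the deviations. Among all genes tested, the 3 with the highest Pearson correlation with Hspa5 were Btaf1 (0.92), Manf (0.91) and Serp1 (0.90). For Xbp1 they were Ugt2b38 (0.94), Clec2h (0.94) and Cyp7b1 (0.93), and for Atf4 they were Psmd11 (0.85), Klhl12 (0.84) and Rnf6 (0.84). For Asns they were Rnf6 (0.89), Ptpn3 (0.87) and Gjb1 (0.87), and for Trib3 Golgb1 (0.84), F12 (0.82) and Chmp7 (0.80). The highest values for the other 4 members were 0.80 for Ddit3 with Rrp7a, 0.80 for Chac1 with Cplx4, 0.80 for Herpud1 with Pck1 and 0.81 for Dnajb9 with Rrp12. When the 2 arrays farthest from the median of the member were left out, r was 0.90 for Hspa5 with Btaf1, 0.91 for Xbp1 with Ugt2b38, 0.72 for Asns with Rnf6, 0.61 for Herpud1 with Pck1 and 0.51 for Dnajb9 with Rrp12. Over all 18 arrays the Spearman rank correlation of Asns was 0.77 with Rnf6, 0.67 with Ptpn3 and 0.55 with Gjb1.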

How the data were processed

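Each array's deposited table gives 1 linear intensity for every probe set, made with MAS5 per the submitters' processing notes. The 2% trimmed mean of each array has a median of 100 over arrays. RNA was extracted with Trizol and labelled with biotin, per the labels' protocols. Genes were named from the platform annotation, which gives 34945 of 45101 probe sets 1 gene, with symbols updated through the entrez id. The log2 of the intensity plus 3.3, its 20th percentile, was analysed. Probe sets had to exceed the 40th percentile of the array on 3 arrays or more, and a gene was read from its brightest probe set. The 6 group means were fitted with limma 3.58.1 in R 4.3.3 (eBayes with trend, 2-sided, Benjamini-Hochberg over 14694 genes), tested on simulated data. The median SE of a comparison was 0.22, and the number of arrays limits the precision. Named genes are the members, up to 4 called genes per list and comparison ranked by size of change (or the smallest p if none was called), and 3 most correlated genes per member. Other list genes named were chosen after their values were seen. The members and lists were chosen with earlier results of these data known.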

Additional observations from a re-analysis of the deposited data

How the results depend on the processing

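Counts of members called moved with the processing, and no called change turned its sign. In WT at 20 weeks (1 called) the count was 2 with a pseudocount of 0.825, a stricter dim filter, the mean of probe sets, the actin ratio term or only the groups compared, 3 with array weights, and 0 with a minimum fold of 1.5. In AIM-KO at 12 weeks (2 called) it was 1 with quantile normalization, no dim filter, the mean of probe sets, no variance trend or the minimum fold, 3 with only the groups compared, 4 with the actin ratio term and 5 with array weights. In AIM-KO at 20 weeks (3 called) it was 4 with array weights, 2 with the mean of probe sets or only the groups compared, 1 with no variance trend and 0 with the Xist term. The Xist term rests on 1 WT array. With it the SE of the Xbp1 change was 0.23, against 0.13 without it, and the change was -0.75 against -0.79. In WT at 12 weeks (0 called) it was 1 with the actin ratio term, the Xist term or only the groups compared and 2 with array weights. From 12 to 20 weeks in AIM-KO (0 called) it was 1 with array weights and 2 with only the groups compared, and with array weights 1 member was called (0 otherwise) when the 20-week diet effects of the genotypes were compared. Leaving out 1 array at a time gave 1 to 3 in AIM-KO at 12 weeks, 1 to 3 in AIM-KO at 20 weeks, 0 to 1 in WT at 12 weeks and 0 to 1 for AIM-KO against WT on chow. The causes were not tested. Correlations of deviations over pairs of arrays with the same replicate number ran from -0.09 to 0.23. Whether a replicate number marks arrays handled together was not tested. With the replicate block the count was 1 in WT at 12 weeks and 3 in WT at 20 weeks, and it left the other counts as they were. Among all genes the count in AIM-KO at 20 weeks, 1022, ranged from 197 with the Xist term to 2017 with array weights. The count over all genes ranged over the alternatives from 335 to 1317 in WT at 12 weeks (756 as reported), 1373 to 3032 in WT at 20 weeks (2129), 1710 to 4259 in AIM-KO at 12 weeks (2666), 5 to 1656 from 12 to 20 weeks in AIM-KO (505) and 1 to 34 in WT (3). Between genotypes it ranged from 3 to 9 on chow (4), 3 to 104 at 12 weeks (11), 2 to 948 at 20 weeks (23) and 3 to 55 on average (4), and for the differences of diet effects from 0 to 23 at 12 weeks (1) and 0 to 331 at 20 weeks (0). Leaving out the 4 Xist-high arrays, and the list counts under alternatives, were chosen after seeing the data. Values of Asns, Ddit3, Trib3 and Chac1 lie low on the scale, which limits them.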
